A study of Mus musculus with 80 samples.

Results

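The genes of the voltage-gated sodium and calcium channels were followed in single medium spiny neurons (MSN) of the mouse striatum. Members were all genes of the expression table whose symbol was Scn with a number and a or b, or began with Cacna, Cacnb or Cacng, and 36 of the 25160 listed genes met that rule. They comprised 7 sodium alpha subunits, 4 sodium beta subunits, 10 calcium alpha1 subunits, 4 alpha2delta subunits, 4 calcium beta subunits and 7 gamma subunits. The sodium alpha subunit Scn2a was listed under its older symbol Scn2a1, which the rule did not take, and is given beside the members.

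Each sample was a single cell sorted by fluorescence from the dorsomedial striatum of adult mice heterozygous for 2 reporters, Drd1a-TdTomato and Drd2-EGFP, so that cells of both groups came from the same reporter strain. Both reporters are BAC transgenes, and each marks cells in which the dopamine receptor promoter it carries is active. The 40 Drd1 cells are called D1 MSN here, by their label. Of the 40 Drd2 cells, 2 had more than 100 TPM of Chat, the enzyme that makes acetylcholine, and were set apart as cholinergic interneurons, so that 38 cells are called D2 MSN. The labels name no animal, so each group counts as 1 sample and no test was made. Most differences between the groups were set beside the same difference within the 2 large plates. Plate FACS051_5 held 18 D1 MSN and 16 D2 MSN, plate FACS086_4 held 21 and 19, and plate FACS086_9 held 1 and 3, too few to give a value. Levels are TPM (transcript abundance corrected for gene length and scaled to a fixed total per cell), and a gene was counted as found in a cell above 1 TPM. TPM do not show how many reads stand behind a value, so a gene without signal is described as listed at 0. Intervals on shares of cells are 95% exact Clopper-Pearson intervals, which cover counting error only.

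A voltage-gated sodium channel is built from a pore-forming alpha subunit, which opens on depolarization and drives the action potential, and beta subunits, which adjust its gating and its placement in the membrane. A voltage-gated calcium channel has a pore-forming alpha1 subunit that sets its type. P/Q, N and R type channels trigger transmitter release, L type channels couple activity to gene expression, and T type channels open near rest. An alpha2delta and a beta subunit bring the P/Q, N, R and L type pores to the surface. Most neuronal gamma subunits are known instead as partners of AMPA-type glutamate receptors. MSN sit at a very negative resting potential and fire when excitatory input pushes them across threshold, a behavior that rests on these channels.

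Between 648 and 8657 genes per MSN were above 1 TPM. Ppp1r1b, a defining MSN marker, was above 1 TPM in 78 of 78 MSN, from 1.42 TPM in the lowest (median 1638 TPM), and the summed level of the 5 cholinergic markers reached at most 15.7 TPM in a D1 MSN and 10.8 TPM in a D2 MSN. Drd1 was found in 38 of 40 D1 MSN and Drd2 in 26 of 38 D2 MSN. Summed markers of oligodendrocytes reached at most 260 TPM (D1) and 84.8 TPM (D2), those of cortical excitatory neurons 147 and 17.0 TPM, and those of endothelial cells 152 and 277 TPM. The endothelial marker Pecam1 was found in 78 of 78 MSN, from 10.8 to 277 TPM, and its part in the results was not tested. A pair of D1 MSN stood apart. The first, in well D04 on FACS051_5, had 13896 TPM summed over 5 astrocyte markers, against at most 225 TPM in any other cell, and 168 TPM over 11 MSN markers, so that its markers go against its label. It had 4838 genes but only 1 of the 36 channel genes above 1 TPM. The second, in well B02 on FACS086_4, had 648 genes, 1 channel gene and 14.9 TPM over the MSN markers. Both were kept, and leaving out either moved no member's log2 fold by more than 0.04 and no share of MSN by more than 1.13 percentage points.

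The results turned most on 3 genes, whose promoters are printed so that they can be set beside their levels. Cacna1i was the channel gene that differed most between D1 and D2 MSN, and Cacna2d1 and Cacna2d3 were the alpha2delta genes found together in most MSN, the first of which was listed at 0 in both cholinergic interneurons. RefSeq promoter entries (build GRCm38.p6) were matched for 26 of the 36 members, and the 250 bases before the gene start are shown 5′ to 3′ on the gene's strand. Capitals mark GC boxes (GGGCGG, either strand), and the TATA box (TATAAA) and the CCAAT box (CCAAT) were also searched on both strands. The Cacna1i promoter lies at chr15:80286988-80287237 on the plus strand, that of Cacna2d1 at chr5:15934441-15934690 on the plus strand, and that of Cacna2d3 at chr14:29721865-29722114 on the minus strand.
Cacna1i: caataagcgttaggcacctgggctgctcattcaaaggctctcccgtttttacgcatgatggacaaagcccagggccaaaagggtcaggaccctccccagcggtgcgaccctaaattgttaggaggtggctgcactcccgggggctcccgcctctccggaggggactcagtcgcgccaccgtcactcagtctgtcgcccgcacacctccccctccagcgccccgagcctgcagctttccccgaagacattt
Cacna2d1: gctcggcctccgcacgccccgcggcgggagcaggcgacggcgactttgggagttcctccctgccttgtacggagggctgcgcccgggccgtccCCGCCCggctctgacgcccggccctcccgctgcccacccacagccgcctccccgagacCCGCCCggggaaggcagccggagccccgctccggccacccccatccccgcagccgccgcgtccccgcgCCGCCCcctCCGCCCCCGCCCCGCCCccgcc
Cacna2d3: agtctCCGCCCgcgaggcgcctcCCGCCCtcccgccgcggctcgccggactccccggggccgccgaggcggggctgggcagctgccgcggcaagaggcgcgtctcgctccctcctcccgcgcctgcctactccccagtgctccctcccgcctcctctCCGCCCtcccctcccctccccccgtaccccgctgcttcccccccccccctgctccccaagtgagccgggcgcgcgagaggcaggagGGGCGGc

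GC boxes, which can overlap each other, numbered 6 in the Cacna2d1 window and 4 in the Cacna2d3 window. Cacna1i had 0, and none of the 3 windows held a TATA or a CCAAT box in these letters. Over the 32851 RefSeq promoters of this length, 32.7% held a GC box, 12.4% a TATA box and 33.9% a CCAAT box. The share of G and C was 62.4% for Cacna1i, 82.4% for Cacna2d1 and 80.0% for Cacna2d3, against a mean of 53.2% over all windows. These matches describe the letters only.

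MSN expressed a broad set of channel genes. Of the 36 members, 15 were found in at least 50% of the MSN, 4 (among them Cacna1g, Cacna1s and Scn11a) in no MSN, and 7 in 1 to 9 MSN. For a gene found in 0 of 78 cells, a limit of 3 cells allows a share of up to 3.85%, and the exact interval reaches 4.62%. Cacng3 had the highest mean level over the 78 MSN, 108 TPM, followed by Cacna2d3 at 84.9 TPM, Scn4b at 60.4 TPM, Scn2b at 54.6 TPM, Cacnb2 at 54.3 TPM, Cacna1e at 51.9 TPM and Cacnb4 at 50.1 TPM. Scn2a1 averaged 88.2 TPM. The order held only roughly between plates. Cacng3 averaged 150 TPM on FACS051_5 and 80.8 TPM on FACS086_4, whereas Scn2a1 was the highest on FACS086_4 with 99.3 TPM. Scn4b, Scn2b, Cacnb2, Cacna1e and Cacnb4 lay closer to each other than their plate means did (for Scn2b, 64.6 and 44.7 TPM), so their order among themselves is not set.

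**Figure D1:**
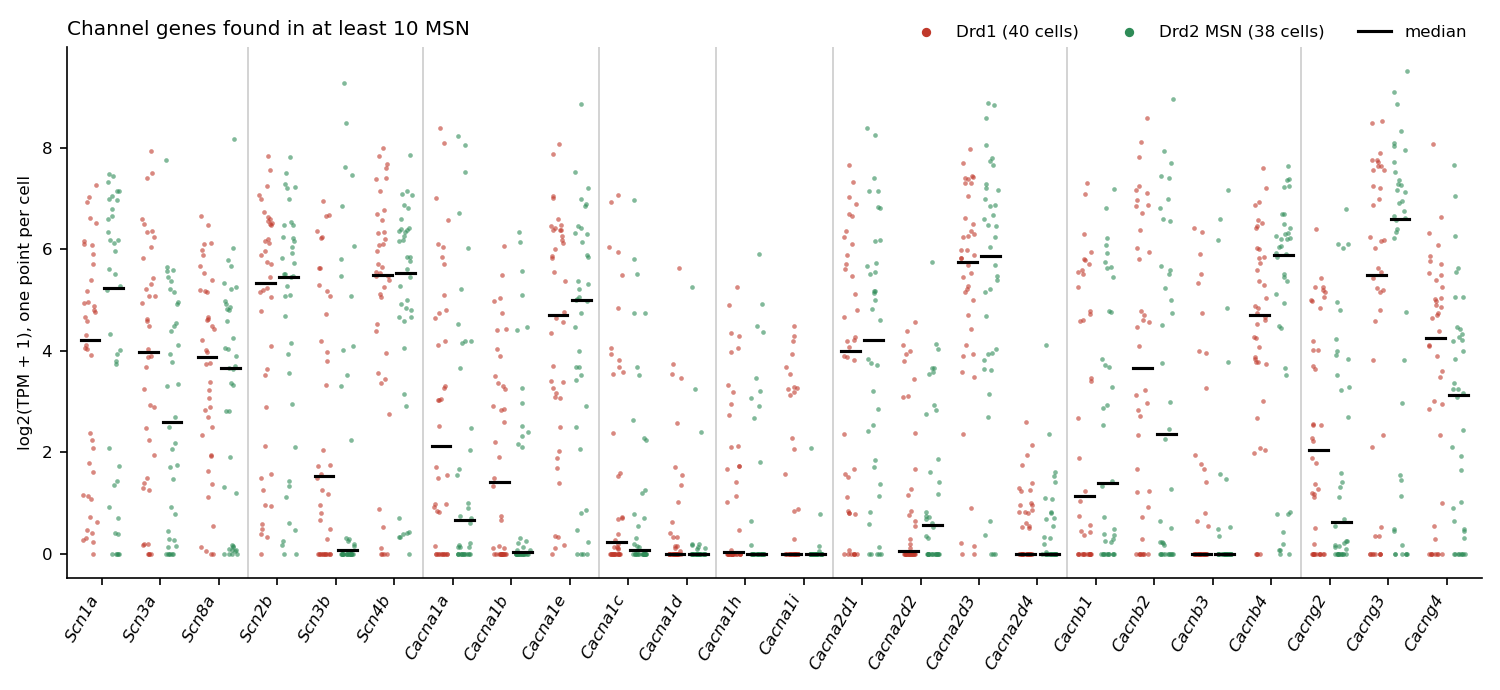
Level of 24 members found in at least 10 MSN, as log2(TPM + 1), with 1 point per cell, D1 MSN (Drd1) at left and D2 MSN at right of each gene and a black line at the median; grey lines part the families. The points of the groups overlap for every gene shown, and Cacna1i passes 1 TPM in 14 of the D1 MSN and in 1 of the D2 MSN.

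Among the sodium alpha subunits, MSN carried the brain types side by side. Scn1a was listed from 0 to 152 TPM in D1 MSN (median 17.5) and from 0 to 177 TPM in D2 MSN (median 36.7). The means were 31.9 TPM (D1) and 54.9 TPM (D2), which gives a log2 fold of -0.76, with -0.81 on plate FACS051_5 and -0.82 on FACS086_4. The groups overlapped over nearly the whole range, and Scn1a was found in about the same share of each, 32 of 40 D1 MSN and 29 of 38 D2 MSN.

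Scn3a, the alpha subunit that is most abundant before birth in rodent brain, leaned the other way. It ran from 0 to 246 TPM in D1 MSN (median 14.6) and from 0 to 216 TPM in D2 MSN (median 5.05). The mean was 37.8 TPM against 19.0 TPM, a log2 fold of 0.95, with 0.70 and 0.97 on the large plates. Without the highest cell of each group, the means were 32.5 TPM (D1) and 13.7 TPM (D2). Scn8a, the alpha subunit of the mature axon initial segment, had nearly equal means of 23.4 TPM (D1) and 22.9 TPM (D2) and was found in 35 and 27 cells. The near equality leaned on a single D2 MSN at 288 TPM, without which the D2 mean of Scn8a was 15.7 TPM. FACS051_5 gave a fold of 0.02, and FACS086_4, which held that cell, gave -0.17. Without its highest cell the D1 mean of Scn8a was 21.4 TPM. The difference of mean log2(TPM + 1) was 0.56.

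Scn9a, best known from pain-sensing neurons, was found in 5 D1 MSN (9.70 to 54.3 TPM) and in 4 D2 MSN (2.54 to 21.4 TPM). Its log2 fold of 1.30 thus rested on the level in 9 cells, and its share of cells was 12.5% in D1 MSN and 10.5% in D2 MSN. The fold was 1.62 on FACS051_5 and 0.77 on FACS086_4. Scn7a and the peripheral subunit Scn11a were near 0, the first above 1 TPM in 1 MSN, at 2.94 TPM, and the second at most 0.191 TPM.

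Most single cells combined several pores. Counting Scn1a, Scn2a1, Scn3a, Scn8a and Scn9a, 39 of 78 MSN had 4 of these genes above 1 TPM, 22 had 3, and 2 had none. Scn2a1 was the highest of them in 45 MSN (26 D1 and 19 D2). Scn1a led in 3 D1 MSN and 12 D2 MSN, a lean seen on both large plates (0 of 18 against 6 of 16 cells, and 3 of 21 against 5 of 19). Scn3a led in 7 D1 MSN and 2 D2 MSN. As a share of the summed mean level of these 5 genes, Scn1a made up 16.9% in D1 MSN and 30.1% in D2 MSN, and Scn3a 20.0% and 10.4%. Scn3a, Scn2a, Scn1a, Scn9a and Scn7a lie in a row on chromosome 2 (Scn3a at 65457118 to 65567627, Scn7a ending at 66784914, GRCm38), with Scn1a and Scn9a 39239 bases apart. These neighbours differed in level, and Scn1a and Scn3a had folds of opposite sign on both large plates. Scn2a1 gave no direction, with log2 folds of 0.63 on FACS051_5 and -0.43 on FACS086_4.

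The sodium beta subunits were led by 2 neighbours. Scn4b, the subunit linked to resurgent sodium current, was listed from 0 to 255 TPM in D1 MSN (median 44.3) and from 0 to 230 TPM in D2 MSN (median 45.3). Scn2b ran from 0 to 229 TPM in D1 MSN (median 39.8) and from 0 to 226 TPM in D2 MSN (median 43.1). Both groups covered the same range for either gene, with log2 folds of 0.23 for Scn4b and 0.01 for Scn2b. On FACS051_5 and FACS086_4 the folds were 0.03 and 0.26 for Scn4b, and -0.28 and 0.53 for Scn2b. The genes stand head to tail on chromosome 9 (Scn2b at 45117782 to 45130070, Scn4b at 45138395 to 45154152), 8324 bases apart, and 55 of 78 MSN had both above 1 TPM while 4 had neither.

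Scn3b was found in fewer cells. Its means were 21.4 TPM (D1) and 45.2 TPM (D2), which gives a log2 fold of -1.05, although more D1 MSN (23 of 40) than D2 MSN (14 of 38) had it. Within plates the fold turned around, from -2.97 on FACS051_5 to 2.69 on FACS086_4. A single D2 MSN on the third plate, at 622 TPM, made up much of the D2 mean, which was 29.6 TPM without it. Without its own highest cell, the D1 mean was 18.8 TPM. No direction for Scn3b can therefore be given.

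Of the calcium pores, the R type subunit Cacna1e was the most abundant. It was listed from 0 to 268 TPM in D1 MSN (median 25.2) and from 0 to 463 TPM in D2 MSN (median 30.9), and was found in 35 of 40 and 30 of 38 cells. The groups did not part, with a log2 fold of -0.08, and of 0.02 on FACS051_5 and 0.43 on FACS086_4. Without FACS086_9, which held the D2 MSN at 463 TPM, the fold was 0.26. Cacna1e was the highest calcium pore in 36 of 78 MSN and made up 47.4% of the summed mean level of the 10 alpha1 genes. On FACS051_5, however, it averaged 40.9 TPM beside 40.1 TPM for Cacna1a, and on FACS086_4 50.1 TPM beside 23.95 TPM.

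The P/Q type subunit Cacna1a had means of 31.8 TPM (D1) and 27.7 TPM (D2), and the N type subunit Cacna1b of 8.51 and 8.11 TPM. Their log2 folds were 0.19 and 0.06. On FACS051_5 and FACS086_4 they were 0.09 and 0.13 for Cacna1a, and 0.73 and -0.1 for Cacna1b. For both genes, the median was lower than the mean by far (3.51 and 0.575 TPM for Cacna1a). Cacna1a was found in 57.5% of D1 MSN and 42.1% of D2 MSN, Cacna1b in 52.5% and 34.2%. Among the L type subunits, Cacna1c had means of 13.5 TPM (D1) and 8.33 TPM (D2) and was found in 15 and 12 cells. The log2 fold of 0.64 was 0.51 on FACS051_5 and 1.82 on FACS086_4. The D2 mean was 5.18 TPM without its highest cell, which was at 125 TPM on FACS086_9. Without its own highest cell, the D1 mean was 10.4 TPM. The fold was -0.28 without FACS086_4 and 1.19 without FACS086_9. The other L type subunits were scarcer: Cacna1d was found in 12 MSN and Cacna1f in 5, and Cacna1s in none.

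The largest fold among the members was that of a T type subunit. Cacna1i was above 1 TPM in 14 of 40 D1 MSN, with values of 1.95 to 21.4 TPM, and in 1 of 38 D2 MSN, at 3.21 TPM. These are shares of 35.0% (interval 20.6% to 51.7%) and 2.63% (0.0666% to 13.8%). Most cells of both groups were at 1 TPM or below, and all but 1 of the MSN above 1 TPM were D1 MSN. With the cholinergic interneurons counted among the Drd2 cells, the log2 fold was 1.75.

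Cacna1i means were 3.66 TPM (D1) and 0.107 TPM (D2), which gives a log2 fold of 2.07. Without the highest cell of each group they were 3.21 and 0.0231 TPM. The direction was the same on both large plates, where 7 of 18 D1 MSN against 0 of 16 D2 MSN had the gene on FACS051_5 (log2 fold 2.47) and 7 of 21 against 1 of 19 on FACS086_4 (1.72). With a pseudocount of 10 TPM the fold was 0.43, and its highest value in any MSN was 21.4 TPM. D1 MSN with Cacna1i had a median of 6110 genes above 1 TPM and the other D1 MSN 5466, and the part of the number of genes found in these shares was not tested.

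Its relative Cacna1h was found in 18 D1 MSN (1.03 to 37.0 TPM) and in 10 D2 MSN (2.47 to 58.9 TPM), with nearly equal means of 4.53 and 4.47 TPM. Within plates the log2 fold went from -0.65 on FACS051_5 to 1.72 on FACS086_4. Cacna1h was found in 8 of 18 D1 MSN and 9 of 16 D2 MSN on FACS051_5. On FACS086_4 it was found in 10 of 21 and 1 of 19. Cacna1h and Cacna1i were both found in 9 D1 MSN and in 0 D2 MSN. Cacna1g, the T type subunit known from thalamus, was listed at 0 in all 78 MSN.

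**Figure D2:**
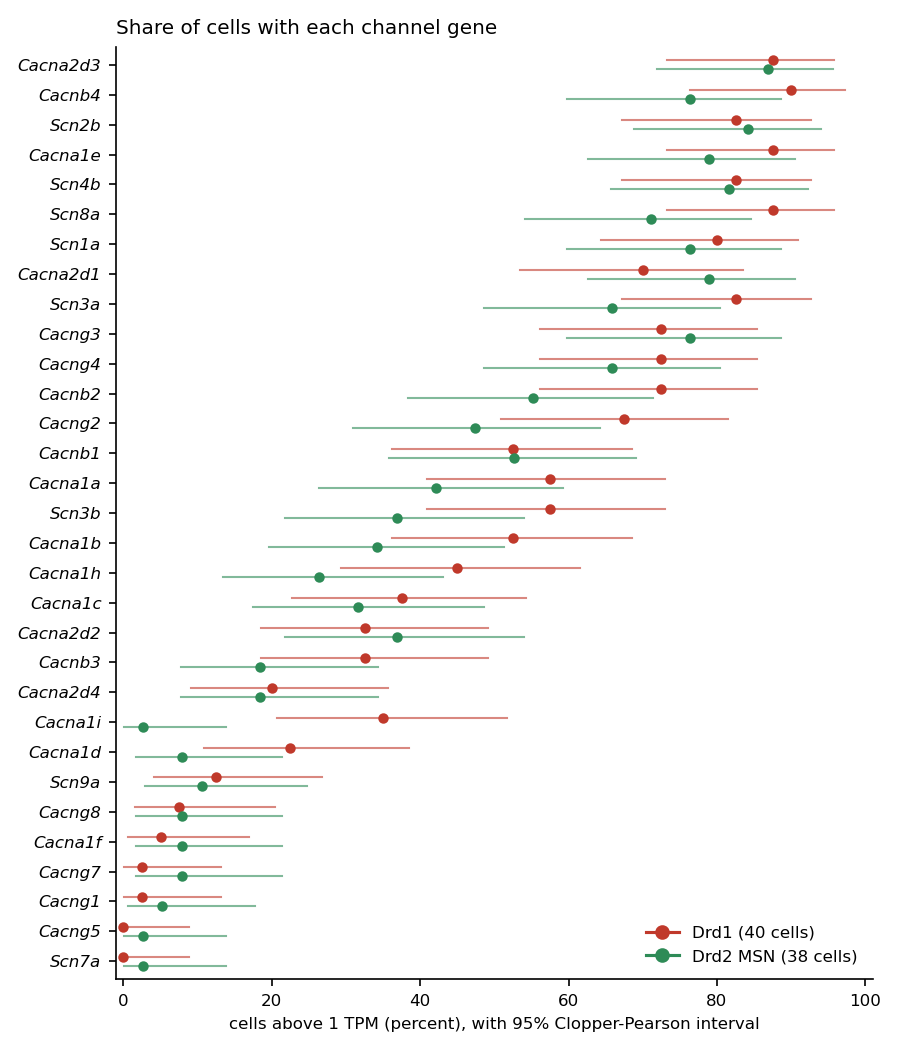
Share of cells in which each of 31 channel genes found in at least 1 MSN was above 1 TPM (x axis, percent), with points for D1 MSN (Drd1) and D2 MSN and bars for the exact 95% intervals. The intervals overlap for every gene shown except Cacna1i, at 35.0% and 2.63%.

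The alpha2delta family was carried mostly by 2 genes. Cacna2d3 ran from 0 to 252 TPM in D1 MSN (median 53.1) and from 0 to 470 TPM in D2 MSN (median 57.9), and was found in 35 of 40 and 33 of 38 cells. Cacna2d1, a target of the gabapentinoid drugs, ran from 0 to 202 TPM in D1 MSN (median 14.9) and from 0 to 336 TPM in D2 MSN (median 18.3). Both leaned to D2 MSN, with log2 folds of -0.54 and -0.46 that kept their sign on both large plates. Cacna2d3 was the higher of the family in 50 MSN and Cacna2d1 in 23, and 53 MSN had both.

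Cacna2d1 differed more between plates than between reporters. It averaged 13.1 TPM over the MSN of FACS051_5 and 62.8 TPM over those of FACS086_4, where Cacna2d3 averaged 96.1 and 79.3 TPM. Cacna2d1 led in 1 of 18 D1 MSN on FACS051_5 and in 10 of 21 on FACS086_4. Whether a plate is an animal or a sort day is not given. Cacna2d2 was found in 27 MSN at a mean of 3.83 TPM, and Cacna2d4 in 15 MSN at 0.762 TPM.

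The calcium beta subunits were led by Cacnb4 and Cacnb2. Cacnb4 ran from 0 to 195 TPM in D1 MSN (median 25.0) and from 0 to 199 TPM in D2 MSN (median 58.0), with a log2 fold of -0.47 that was -0.88 on FACS051_5 and 0.00 on FACS086_4. Cacnb2 had means of 55.6 and 52.9 TPM, and its fold went from -1.0 to 1.05 between the large plates. In the annotation, 15.99% of the exonic bases of Cacnb4 are shared with A430018G15Rik on the opposite strand, and whether the counting used strand is not stated, so reads of both cannot be told apart.

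Cacnb1 was found in 21 D1 MSN and 20 D2 MSN, with means of 22.4 and 20.3 TPM. Cacnb3 was found in 13 and 7 cells, with means of 9.54 and 9.36 TPM. Without the highest cell of each group, its means were 7.62 TPM (D1) and 5.76 TPM (D2, highest cell at 142 TPM). Within the large plates the log2 fold was 1.11 (FACS051_5) and -0.91 (FACS086_4). Most MSN carried more than 1 beta gene: 29 of 78 had 2, 18 had 3, 12 had all 4, and 3 had none.

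The gamma family held the most abundant member of all. Cacng3, a partner of AMPA receptors, ran from 0 to 367 TPM in D1 MSN (median 44.0) and from 0 to 730 TPM in D2 MSN (median 96.1), and was found in 29 cells of each group. Its log2 fold of -0.56 was -0.95 and -0.24 on the large plates. Cacng4 leaned the other way, with medians of 18.1 TPM (D1) and 7.75 TPM (D2), and its log2 fold of 0.52 was 0.55 and 1.48. Its highest D2 MSN, at 202 TPM, was on FACS086_9. Without the highest cell of each group, the Cacng4 means were 23.4 TPM (D1) and 15.35 TPM (D2). Cacng3 was the highest gamma gene in 44 MSN, Cacng4 in 17 and Cacng2, known as stargazin, in 8.

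Cacng2 had means of 12.4 and 12.3 TPM in D1 and D2 MSN, and log2 folds of 0.08 on FACS051_5 and -0.25 on FACS086_4. Cacng1, the gamma subunit of skeletal muscle, had a log2 fold of -1.19 (-3.20 on FACS051_5) that rested on 3 cells, 1 D1 MSN at 40.0 TPM and 2 D2 MSN at 46.5 and 91.3 TPM. On FACS086_4 the D1 mean of Cacng1 was 1.91 TPM and all D2 MSN were listed at 0. The direction there was thus the opposite, and no fold is printed. Cacng8 was found in 6 MSN, Cacng7 in 4 and Cacng5 in 1.

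**Figure D3:**
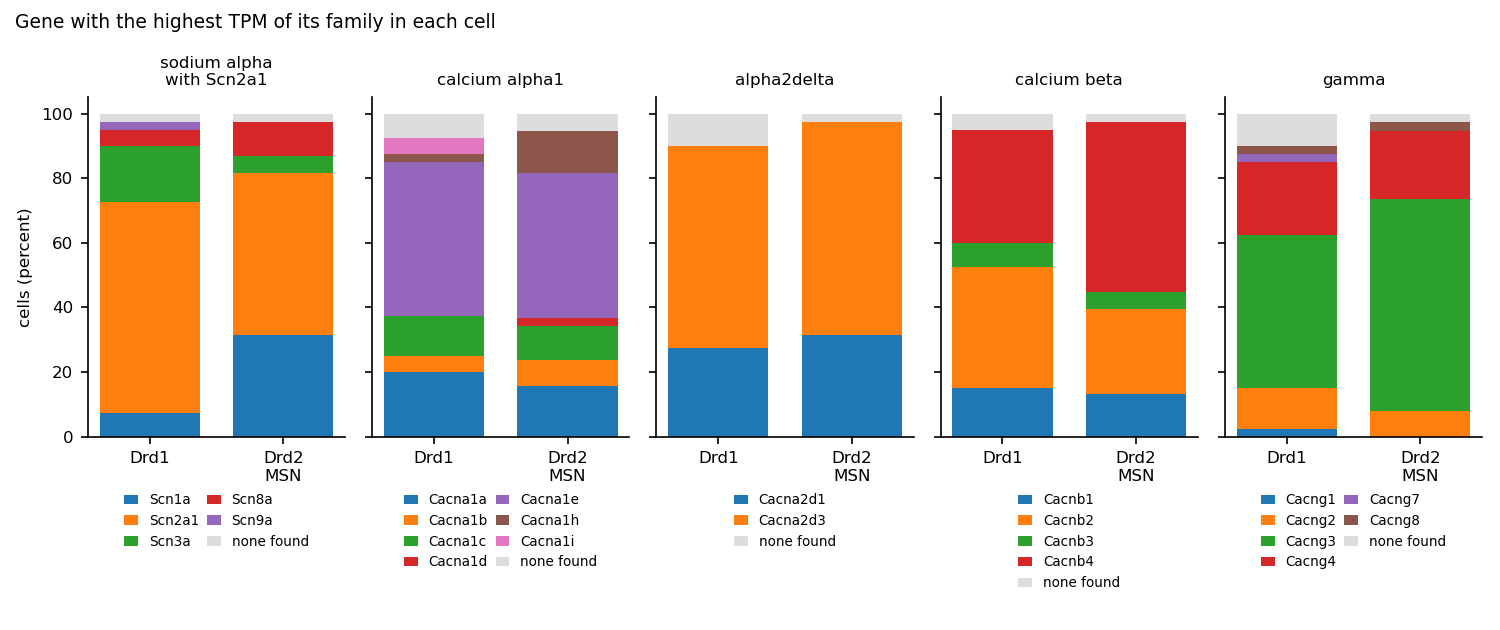
Share of cells (y axis, percent) in which each gene had the highest TPM of its family, for D1 MSN (Drd1, 40 cells) and D2 MSN (38 cells), with grey for cells in which no gene of the family was above 1 TPM. Scn2a1, Cacna1e, Cacna2d3 and Cacng3 take the largest share of their families in both groups, and Scn1a takes more of the D2 MSN (12 of 38) than of the D1 MSN (3 of 40).

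Taking the families together, 27 members averaged at least 1 TPM over the MSN and entered the count of folds, and the other 9 did not. A log2 fold above 1, meaning more than 2-fold higher mean TPM plus 1 in D1 MSN, was reached by 2 of the 27, Cacna1i and Scn9a (7.41%), where 21.1% of all 15671 genes with such a mean did so. A log2 fold below -1 was reached by 2 members, Cacng1 and Scn3b (7.41%), against 14.8% of all genes. On both large plates separately, 1 member, Cacna1i, was above 1 (3.70%; all genes 6.08%), and 0 members were below -1 (all genes 4.47%).

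Channel genes passed the fold limit in a smaller share than all genes did, a difference that was not tested, and 15 of the 27 had an absolute log2 fold of at most 0.5. The median log2 fold of the members was 0.03, and that of all genes 0.09. Of the 25 members above 0 in both groups on both large plates, 10 (40.0%) had folds of opposite sign on them, as had 48.6% of 12570 such genes. Since so many genes at large pass these limits, a fold above 1 in itself does not set a member apart.

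**Figure D4:**
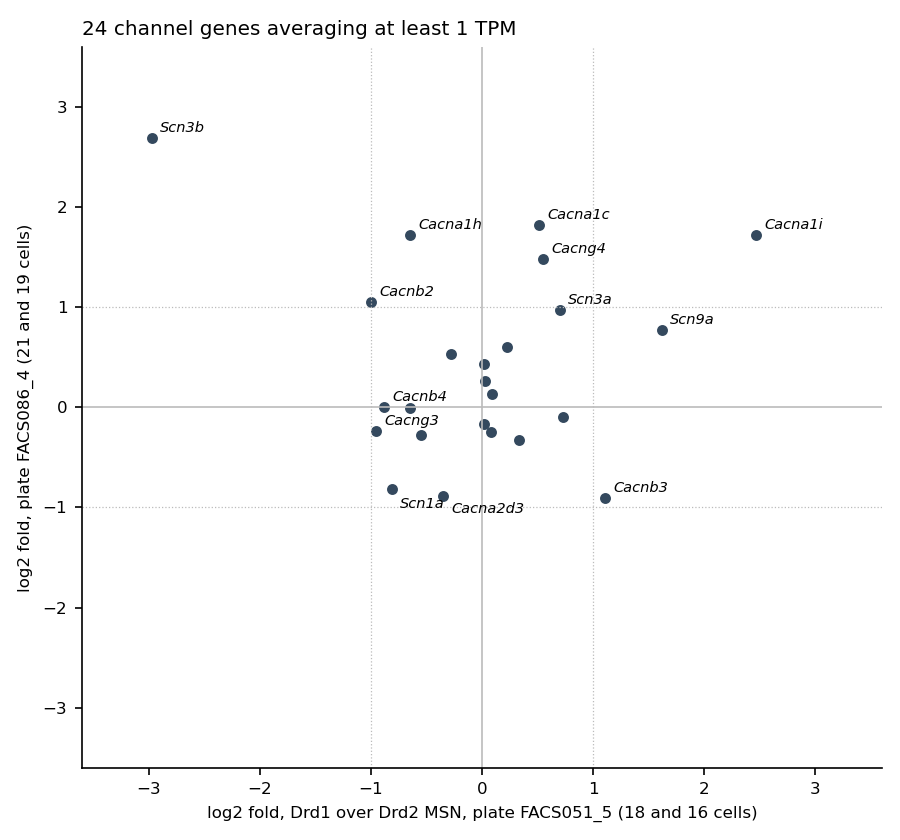
Log2 fold of mean TPM plus 1, D1 over D2 MSN, on plate FACS051_5 (x axis) and on plate FACS086_4 (y axis) for 24 members that averaged at least 1 TPM and were above 0 in both groups on both plates; dotted lines mark folds of 1 and -1. Cacna1i alone lies past 1 on both plates (2.47 and 1.72), and Scn3b lies past the limit in opposite directions (-2.97 and 2.69).

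The number of channel genes found in a cell moved with the number of all genes found in it. A D1 MSN had between 1 and 23 members above 1 TPM (median 17), and a D2 MSN between 2 and 23 (median 14). Across the 78 MSN, which share plates and whose depth was not read, the number of members and the number of all genes found had a Pearson r of 0.85. On FACS051_5 the medians were 16.5 members and 5109 genes in D1 MSN and 16 members and 5923 genes in D2 MSN. On FACS086_4 they were 18 members and 5730 genes against 13 members and 4617 genes. Of the 27 members, 20 were found in a larger share of D1 than of D2 MSN (74.1%), as were 62.6% of all genes with such a mean, and the part of depth in these shares was not tested.

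Both cholinergic interneurons came from plate FACS051_5, in wells A08 and B02, and had 10912 and 10251 genes above 1 TPM, more than any MSN. Scn4b was listed at 0.441 and 0.196 TPM in them, where 66 and 72 of the 78 MSN had as much or more. Cacna2d1 was listed at 0 in both, as in 7 D1 MSN and 5 D2 MSN, and on their plate it was found in 9 of 18 D1 MSN and 13 of 16 D2 MSN. Cacna2d3 was at 317 and 135 TPM. Cacng4 stood at 0.328 and 0.873 TPM and Cacna1e at 4.31 and 2.20 TPM, and 60 and 64 MSN had at least as much Cacna1e.

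Cacnb3 and Cacna2d2 were high in them. Cacnb3 was at 112 and 305 TPM, with 1 and 0 MSN at or above these levels. Cacna2d2 was at 22.6 and 44.3 TPM, which 2 and 1 MSN reached. Scn2b, next to Scn4b on the chromosome, was at 62.6 and 135 TPM, which 28 and 8 MSN reached, and Scn8a at 48.1 and 40.4 TPM, which 11 and 13 MSN reached. Cacna1i was at 0.550 and 10.9 TPM, and 5 MSN had as much as the second cell. Cacna1s, the L type pore of skeletal muscle, was at 48.1 TPM in 1 interneuron and listed at 0 in the other and in every MSN. Of its exonic bases, 20.0% are shared with Gm37759 on the opposite strand. Cacna1g was at 0.287 and 2.80 TPM. With only 2 such cells, these are values of those cells.

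**Figure D5:**
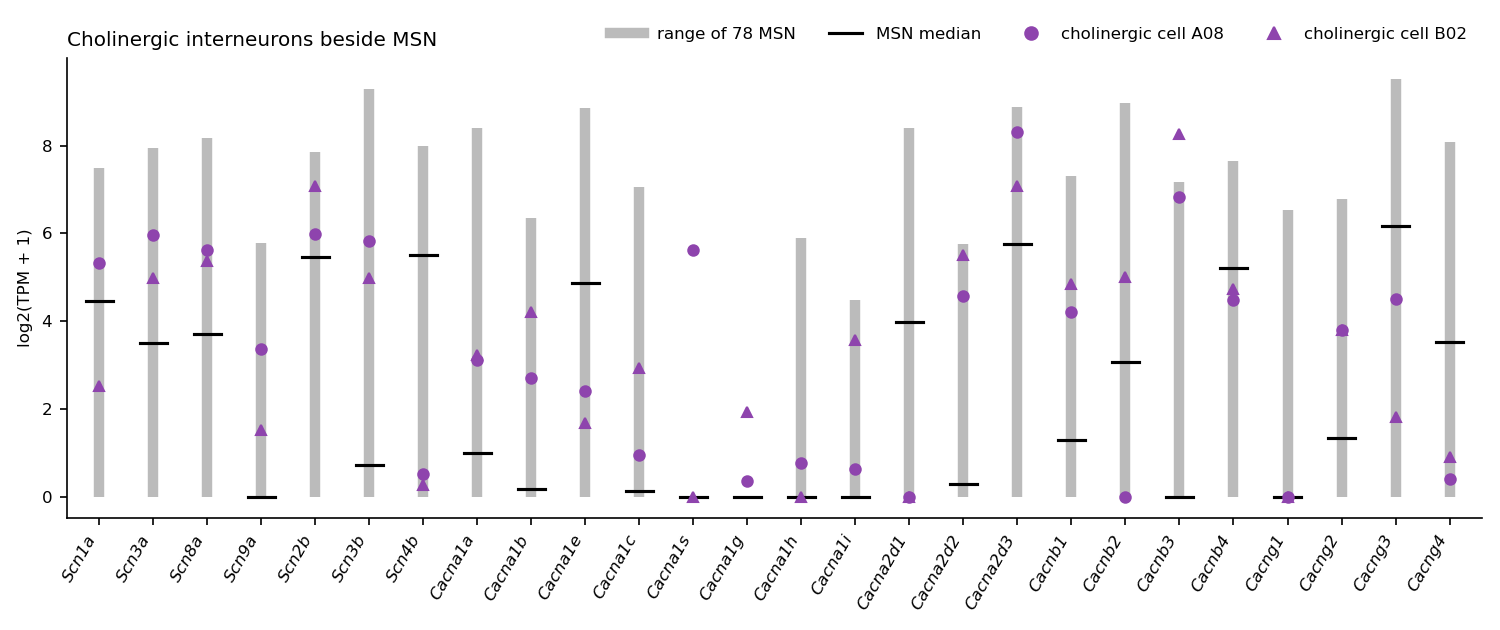
Level, as log2(TPM + 1), of 26 members named by rule in the cholinergic cells A08 (circles) and B02 (triangles) beside the range (grey bars) and the median (black lines) of the 78 MSN. Scn4b, Cacna2d1 and Cacng4 lie near 0 in both cells, and Cacnb3 lies near or above the top of the MSN range.

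Genes that anchor the channels or handle the calcium they admit, with the sodium leak channel and Scn2a1, were listed in 7 groups with 35 genes. Of these, 34 were in the table and 32 averaged at least 1 TPM. A log2 fold above 1 was reached by 3 (21.1% of all genes) and below -1 by 1 (14.8% of all genes). Ryr1, which releases calcium from internal stores, had means of 36.8 TPM (D1) and 5.10 TPM (D2) and a log2 fold of 2.63 (2.53 and 3.53 on the large plates). Slc8a3, a sodium-calcium exchanger, had means of 21.03 and 4.07 TPM, a log2 fold of 2.12. Slc8a3 was above 1 TPM in 16 of 40 D1 MSN and 4 of 38 D2 MSN. These counts were 9 of 18 (mean 21.3 TPM) against 0 of 16 (mean 0 TPM) on FACS051_5, for which no fold is printed. They were 6 of 21 against 4 of 19 on FACS086_4, with a fold of 0.55. Over all plates, the Slc8a3 means without the highest cell of each group were 16.5 TPM (D1) and 1.84 TPM (D2). Kcnn2, a calcium-activated potassium channel, had means of 20.1 and 8.96 TPM, a log2 fold of 1.08 that was 0.16 on FACS051_5 and 2.38 on FACS086_4. Rims1, a release-site tether, had means of 11.5 and 33.0 TPM, a log2 fold of -1.44 that was 0.39 and -2.28 on the large plates. The 8 genes of the axon initial segment and channel partner group, led by Ank3 at 213 and 182 TPM, had folds between -0.24 and 0.99, and the 4 genes of the sodium leak channel between -0.18 and 0.95. Scn2a1 itself was found in 36 of 40 D1 MSN and 37 of 38 D2 MSN, with means of 91.6 and 84.6 TPM. Its log2 fold of 0.11 was 0.63 and -0.43 on the large plates.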

How the data were processed

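The authors deposited a table of TPM for 25160 genes in 80 single cells, made from cDNA of a template-switching kit. The labels and methods name STAR 2.5.0, featureCounts 1.5.1, the genome mm10/GRCm38 and an annotation of that build, and how the TPM were made is not given in the sources used here. TPM keep no reads, so the depth per cell was not read from the file. The study counted fewer cells as usable than were deposited and does not name them, and all 80 were kept. Per cell, the listed TPM added up to 506588 to 958040.

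Groups were taken from the labels. The log2 fold was that of mean TPM plus 1 in D1 MSN over D2 MSN, for genes averaging at least 1 TPM over the 78 MSN. Genes above 1 TPM counted as found. The Chat limit of 100 TPM was set after values were seen, and the members and lists were chosen with earlier results of these data known. Members were named when found in at least 25% of the MSN, when past a log2 fold of 1, or when higher in a cholinergic interneuron than in any MSN; others given by name, and the promoters shown, were chosen after their values were seen. Gene positions came from GENCODE M21 and promoters from RefSeq, both GRCm38. Members not in the table were not analysed here. Counts cover all 36 members, and values of some members are not reported here. The fold was tested on simulated data. Alternatives changed the pseudocount, the averaging, the scaling, the filter, the limit for found and the cells. No reads were recounted. The work used pandas 2.3.3 with numpy 2.4.6 in Python 3.11.15, scipy 1.17.1 for intervals and matplotlib 3.10.9 for plots.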

Additional observations from a re-analysis of the deposited data

How the results depend on the processing

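Few channel genes pass the fold limit, so the counts move easily. The count higher in D1 MSN (2) was 0 with a pseudocount of 10 TPM, 0 with a mean of at least 10 TPM, 1 with the difference of mean log2(TPM + 1) and 4 without plate FACS051_5. The count higher in D2 MSN (2) was 0 with a pseudocount of 10 TPM or the difference of mean log2 values, and 1 with the listed TPM of each cell rescaled to the same total, without FACS051_5, without FACS086_9, or with a mean of at least 10 TPM. The median log2 fold (0.03) was 0.32 with the difference of mean log2 values and -0.25 without FACS086_4. The count of members found in at least 50% of the MSN stayed within 1.5 times of 15 under every alternative run. Scn3b reversed to 0.39 with the difference of mean log2 values and to 0.02 without FACS051_5; the cause was not tested. Cacna1i lay between 1.12 and 4.18 except with a pseudocount of 10 TPM. Without FACS051_5 no fold is printed for Cacng1, because its D2 MSN were then all listed at 0. The only MSN then above 1 TPM was a D1 MSN. The member counted as higher in D2 MSN without FACS051_5 was thus neither Cacng1 nor Scn3b. Leaving out the cell in well B02 of FACS086_4 was added after seeing the data. No test was made, so no fit with a block was run, and values within the large plates stand beside most of the results.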
